A study of Homo sapiens with 2 samples.

Results

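Short transcripts of 200 nt or less were examined among the RNAs recovered with DDX3X from resting cells. Transcripts were chosen by measured values: an implied length of 200 nt or less and at least 10 reads summed over both libraries. The length is not listed in the deposited tables and was computed from them, as the read count divided by TPM (transcripts per 1000000, a count per length), rescaled so that every transcript had a whole number of nucleotides. These criteria were met by 235 transcripts, of 46395 with at least 10 reads and 68731 listed. Both criteria rest on the counts themselves, so the lengths and summed reads of these 235 are a description and were not tested. A length could be computed for the 57721 transcripts with a read in at least 1 library, and the 11010 others, of which some may be short, are not covered.

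The cells were wild-type HEK293FT, an established human embryonic kidney line, given as exposed to the solvent DMSO in the treatment label, while the treatment protocol reads as untreated and the column headers name no treatment. The assay was CLIP-seq: ultraviolet light links RNA to the proteins it touches, an antibody pulls down DDX3X with its RNA, and that RNA is sequenced. The 1 group held 2 replicate libraries, with 19307022 counts in replicate 1 and 11238842 in replicate 2. Nothing in the labels says whether they came from separate cultures, so the spread between them may be technical. Thapsigargin-treated cells, input RNA and a control precipitation were not analysed here, and no contrast between conditions was made. Without input RNA, a plentiful RNA and one that DDX3X binds well cannot be told apart by these counts.

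DDX3X is a DEAD-box helicase, an enzyme that uses ATP to remodel RNA and RNA-protein complexes, and is known for its part in the translation of mRNAs with structured leaders and in stress granules. RNAs in this size range are mostly noncoding. Transfer RNAs carry amino acids to the ribosome, small nucleolar RNAs guide the modification of ribosomal and other RNAs, small nuclear RNAs form the core of the spliceosome, and microRNA hairpins are precursors of the small guides that silence mRNAs. Many small nucleolar RNAs and microRNA hairpins are cut out of longer host transcripts. None of the 235 transcript IDs appeared as a synonym in the supplied gene table or in the supplied microRNA table, and the deposited tables pair the IDs with no symbols. Classes, gene names, genomic positions and sequences are therefore not given, and transcripts are called here by their implied length and counts.

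Most of the short transcripts had lengths in the lower part of the range. Their median was 87 nt, and 156 of the 235 (66.4%) lay from 60 to 100 nt, while 5 were shorter than 60 nt and 74 longer than 100 nt. The commonest single lengths were 70 nt and 110 nt, with 11 transcripts each. By class, 88 transcripts had 22 to 80 nt, 73 had over 80 and up to 100 nt, 22 up to 120 nt, 38 up to 150 nt and 14 up to 200 nt. Above the limit, 17 transcripts with at least 10 reads had up to 250 nt and a further 27 up to 300 nt. In RefSeq (GRCh38.p14), genes of 200 nt or less had a median length of 73 nt for tRNA, 80 nt for microRNA hairpins, 104 nt for small nucleolar RNA and 120 nt for small nuclear RNA. These classes overlap in length, so a length does not assign a transcript to one of them.

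**Figure D1:**
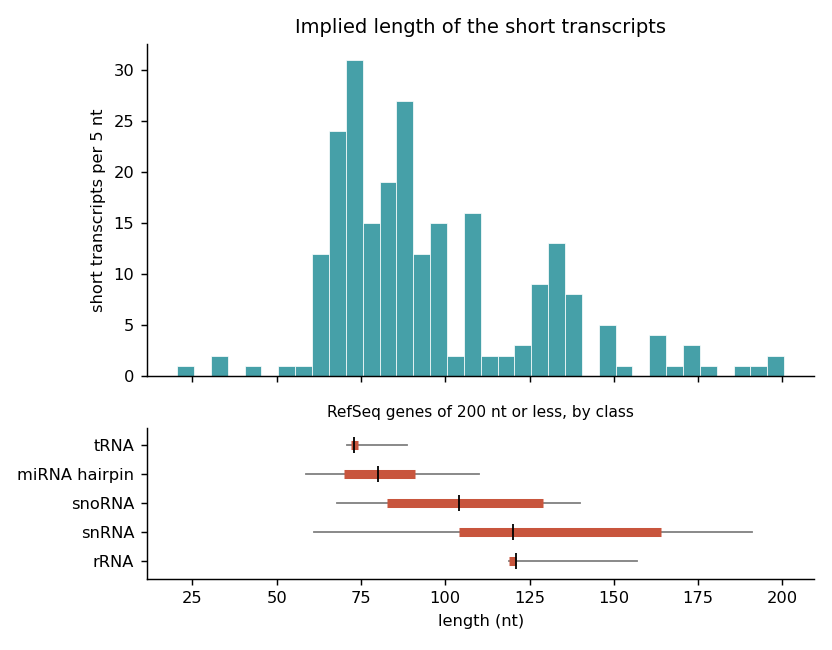
Upper panel: number of short transcripts (y axis) per 5 nt of implied length (x axis, nt), for all 235. Lower panel: lengths of RefSeq genes of 200 nt or less in 5 classes, with the median as a black tick, the quartiles as the ends of a thick bar and the 5th to 95th percentile as a thin line. Most of the short transcripts lie from 60 to 100 nt, with smaller groups near 110 nt and 130 nt.

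Reads were concentrated in very few of the short transcripts. The transcript with the most summed reads, uc011czw.1 (88 nt), had 7162 counts in replicate 1 and 2086 in replicate 2. A 124-nt transcript followed with 5898 and 3024 counts. With equal weight for each library their order turned, at a mean of 287.3 CPM for the 124-nt transcript and 278.3 CPM for uc011czw.1. Together these held 38.1% of the counts of all 235 in replicate 1 and 27.9% in replicate 2. The 7 transcripts with at least 1000 summed reads held 61.4% and 49.7%. Most of the group had few reads: the median was 47 summed reads and the quartiles 24 and 117.5, against a median of 274 over all 46395 transcripts.

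Per unit length, some short transcripts were among the highest in the whole table. The 88-nt uc011czw.1 had a TPM of 7937 in replicate 1 and 4110 in replicate 2, a mean of 6024 ± 2706 (SD, n = 2). It ranked 1st in replicate 1 and 2nd in replicate 2 among all transcripts. The 124-nt transcript had 4639 and 4229 TPM, a mean of 4434 ± 290.1 (SD, n = 2), and ranked 3rd and 1st. The SD of uc011czw.1 exceeds the difference between these means, so the order of the leading pair is not settled by 2 libraries.

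The third by mean TPM was also the shortest of the 235, at 22 nt. It had 349 and 305 counts, which its length turns into 1547 and 2404 TPM, a mean of 1976 ± 605.8 (SD, n = 2). It therefore ranked 15th of the whole table by mean TPM, but 12th among the 235 by summed reads. A 135-nt transcript had 1973 and 1918 TPM, a mean of 1945 ± 39.1 (SD, n = 2), which did not differ from that of the 22-nt transcript beyond the latter's SD. Next came a 127-nt transcript with 1494 and 1352 TPM and a 98-nt one with 1305 and 1016 TPM. A 130-nt transcript had 883 and 701.6 TPM. A 72-nt and a 70-nt transcript had 711.1 and 700.8 TPM in replicate 1 and 664.7 and 668.8 in replicate 2, and their means differed by less than the SD of either. The tenth, of 125 nt, had 663.2 and 564.6 TPM. Of these 10, all but the 22-nt transcript were higher in replicate 1.

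**Figure D2:**
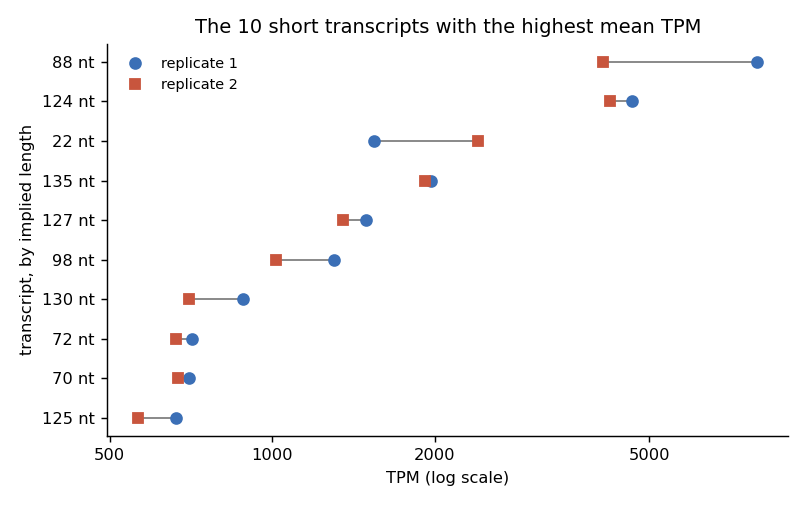
TPM (x axis, log scale) in replicate 1 (circles) and replicate 2 (squares) of the 10 short transcripts with the highest mean TPM, ordered from the top and labelled by implied length; grey lines join the libraries. The 88-nt and 22-nt transcripts have the widest gaps, in opposite directions.

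By read number none of the 235 ranked among the 100 highest of the table on mean counts per 1000000 (CPM), whereas 9 did on mean TPM. In replicate 1 the group held 0.178% of all counts, with a Wilson 95% interval of 0.176 to 0.180%. In replicate 2 it held 0.163%, with an interval of 0.161 to 0.165%. The mean share was 0.170% ± 0.0105 (SD, n = 2). The intervals cover counting error only. Of all TPM it held 3.56% and 3.51%, a mean of 3.54% ± 0.0317 (SD, n = 2). The share of TPM was thus 20.8 ± 1.09 times (SD, n = 2) the share of counts. For the 418 transcripts of over 200 and up to 500 nt this factor was 4.48 ± 0.122 (SD, n = 2). The near-equal TPM shares concealed opposite shifts within the group. The 7 transcripts with at least 1000 reads held 1.89% of TPM in replicate 1 and 1.39% in replicate 2, and the other 228 held 1.67% and 2.13%.

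The TPM of a short transcript moves in large steps. A total of 10 reads corresponds to a mean TPM of 7.13 at 88 nt and of 0.248 at 2524 nt, the median length over all transcripts tested. The minimum of 10 reads is thus a higher TPM threshold for a short transcript than for a long one, so medians of TPM over short and long transcripts are not on an equal footing. The median TPM of the 235 was 28.8 in replicate 1 and 44.3 in replicate 2, and over all 46395 transcripts 6.39 and 6.65.

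Most of the short transcripts had reads in both libraries. Of the 235, 234 had at least 1 count in replicate 1 and 230 in replicate 2, and 229 had counts in both. At least 10 counts were present for 190 in replicate 1, for 173 in replicate 2 and for 144 in both. The limit that goes with a 0 is 3 counts, which is 0.155 CPM for replicate 1 and 0.267 CPM for the less deep replicate 2. A 189-nt transcript with 32 counts in replicate 1 and 0 in replicate 2 stood at 6.21 times the floor of replicate 2. A 98-nt transcript with 0 and 14 counts stood at 8.02 times the floor of replicate 1. The other 4 with counts in replicate 1 alone, at 10 to 14 counts, stood at 1.94 to 2.72 times the floor of replicate 2. These multiples take the count above 0 as exact and are not lower limits of a fold difference. Each of the 6 passed the minimum only through the library where it had reads, so a difference follows from the rule. For the deeper replicate 1, 10 counts are 0.518 CPM, and for replicate 2 0.890 CPM. Transcripts with counts in 1 library alone made up 6 of the 235, against 1.49% of all transcripts with at least 10 reads. That share is not matched for reads, of which the short transcripts had fewer. At 10 to 19 reads, 1 of 38 had no count in replicate 1 and 4 none in replicate 2, against 177 and 281 of 2554 over 200 nt. At 20 to 49 reads it was 0 and 1 of 84, against 26 and 187 of 4705.

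How far the replicates agreed was measured by comparing how each transcript's reads divided over the libraries with how the library totals divided, in a two-sided exact binomial test. P-values were adjusted by the Benjamini-Hochberg method over all 46395 transcripts, with a threshold of 0.05. The test sets the 2 libraries against sampling noise and compares no conditions. It called 51.5% of the 235 short transcripts, against 48.6% of all transcripts, so the share was near the background. The directions were unequal: 41 (17.4%) were higher in replicate 1 and 80 (34.0%) in replicate 2, against 23.6% and 25% of all transcripts. That background is not matched for reads, and shares by read range are given below. A like lean was present just above the length limit, where 17.6% and 35.3% of 17 transcripts up to 250 nt were called in these directions. Of the 27 of over 250 and up to 300 nt it was 25.9% and 29.6%, and of the 418 of over 200 and up to 500 nt 27.8% and 18.7%. With a variance enlarged to the mean squared deviation found at like read numbers over all transcripts, 0 were called at the same adjusted threshold and 15 of the 235 (6.38%) had an unadjusted p below 0.05, against 0 and 4.81% of all 46395 transcripts.

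**Figure D3:**
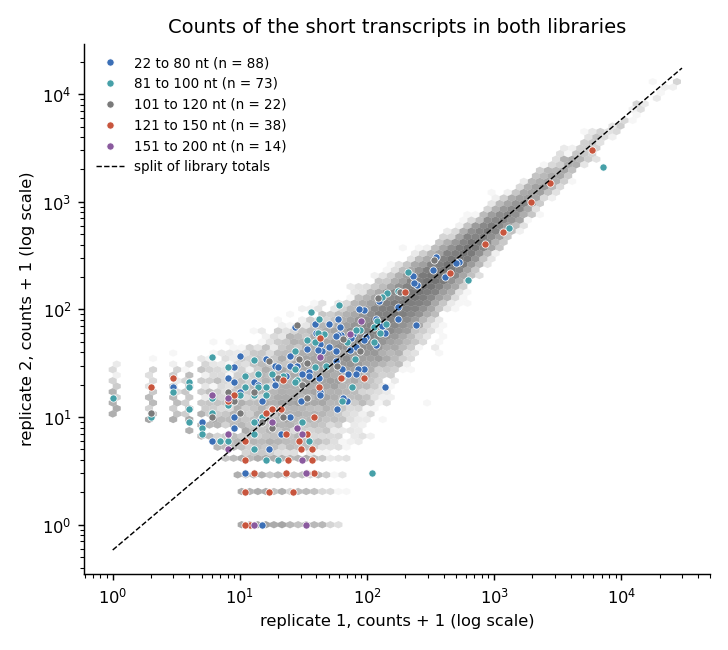
Counts plus 1 in replicate 1 (x axis, log scale) and replicate 2 (y axis, log scale) of the 235 short transcripts, coloured by length class, over all transcripts longer than 200 nt as grey bins (darker where more transcripts fall). The dashed line is the split of the library totals; the 88-nt uc011czw.1, with 7162 and 2086 counts, lies below it at the upper right.

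In size the differences were wider than in the table as a whole. The log2 ratio of replicate 1 over replicate 2, after adding 0.5 counts to each, had a median of -0.37 and quartiles of -1.21 and 0.41, against a median of -0.01 and quartiles of -0.40 and 0.38 over all transcripts. Of the 235, 126 (53.6%) lay within 2-fold, against 82.0% of all. Just above the length limit, it was 35.3% of the 17 transcripts up to 250 nt and 63.0% of the 27 from there up to 300 nt. At least 2-fold and past the adjusted threshold of the exact binomial test were 91 of the 235 (38.7%), against 15.7% of all. Of these, 30 were higher in replicate 1 and 61 in replicate 2, against 7.59% and 8.08% of all. These backgrounds are not matched for reads. At like read numbers the share past both limits was lower than over 200 nt at 10 to 19 reads (34.2% against 43.0%). It was higher at 20 to 49 (58.3% against 44.1%), 50 to 99 (39.0% against 35.3%) and 100 to below 200 reads (31.0% against 19.1%). From 200 to below 1000 reads it was 0 against 4.92%. The coefficient of variation between the libraries, estimated with edgeR as the square root of the common dispersion, was 0.597 for the short transcripts, 0.318 for all tested and 0.375 for those longer than 200 and at most 500 nt. Among transcripts with at least 50 reads it was 0.410, 0.261 and 0.246 in the same order.

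Because short transcripts had fewer reads, they were also compared at like read numbers. At 20 to 49 summed reads, 27 of 84 short transcripts (32.1%) lay within 2-fold, against 46.8% of transcripts over 200 nt. At 50 to 99 reads it was 25 of 41 (61.0%) against 64.5%, and from 100 to below 200 reads 29 of 42 (69.0%) against 80.9%. The order was opposite at 10 to 19 reads, with 15 of 38 (39.5%) against 32.0%, and from 200 to below 1000 reads, with 23 of 23 against 95.1%. The wider spread of the group was thus not seen in every read range. These shares were not tested, since transcripts of the same libraries are not replicates.

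**Figure D4:**
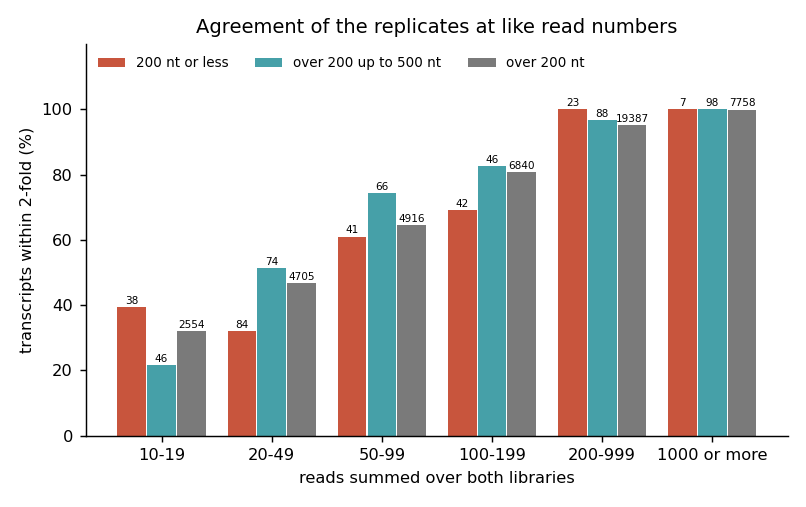
Percentage of transcripts whose replicate ratio lies within 2-fold (y axis) in 6 ranges of reads summed over both libraries (x axis), for transcripts of 200 nt or less, of over 200 and up to 500 nt, and of all lengths over 200 nt. The number of transcripts stands above each bar; the short transcripts lie below those over 200 nt in the 3 ranges from 20 to below 200 reads and above them in the other 3.

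The largest single differences among the 72 short transcripts with at least 100 reads were several-fold. A 99-nt transcript, uc010ahi.1, had 109 counts in replicate 1 and 2 in replicate 2, a ratio of 31.7 (exact 95% interval of counting error 8.57 to 265.3) and an adjusted p of 2.3e-17 in the exact binomial test. A 70-nt transcript, uc010gar.2, had 138 and 18 counts, a ratio of 4.46 (2.72 to 7.75) and an adjusted p of 4.4e-11 in the same exact test. Both were higher in replicate 1.

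In the other direction, a 90-nt transcript, uc011ayg.1, had 35 and 93 counts, 4.56-fold higher in replicate 2 (3.06 to 6.94; adjusted p of 1.5e-14 in the exact binomial test). Another 90-nt transcript, uc002ldr.2, had 41 and 81 counts, 3.39-fold higher in replicate 2 (2.30 to 5.07; adjusted p of 9.4e-10 in the same exact test). Of the 72, 41 were called (56.9%), against 50.3% of transcripts over 200 nt with at least 100 reads. By direction, 15 (20.8% of the 72) were called higher in replicate 1 and 26 (36.1%) in replicate 2. Over 200 nt at that depth it was 25.4% and 24.9%. At far greater depth, uc011czw.1 was 2.00-fold higher in replicate 1 (1.90 to 2.10), with an adjusted p of 4.1e-186 in the exact binomial test. With the enlarged variance, which left 0 of all 46395 transcripts called, none of these 5 was called.

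All 7 short transcripts with at least 1000 reads had ratios above 0, and the exact binomial test called 6 of them higher in replicate 1. At that depth it called 29.0% of the 7758 transcripts over 200 nt higher in replicate 1 and 30.8% in replicate 2. Of those up to 500 nt, it called 51 of 98 (52.0%) higher in replicate 1 and 13 (13.3%) in replicate 2. Among the 7 short ones, the exception was the 135-nt transcript with 2731 and 1493 counts, a log2 ratio of 0.09. From 200 to below 1000 reads, 3 of 23 (13.0%) were called higher in replicate 1 and 11 (47.8%) in replicate 2, against 24.9% and 24.0% over 200 nt. At 20 to 49 reads, 16 of 84 (19.0%) were called higher in replicate 1, near the share over 200 nt (939 of 4705), and 33 (39.3%) in replicate 2, against 24.4%. At 10 to 19 reads calls in both sets leaned to replicate 2. They were 13.2% and 21.1% of 38 short transcripts, against 14.2% and 28.8% over 200 nt. At 50 to 99 reads the shares were 12.2% and 31.7%, against 19.8% and 23.9%. From 100 to below 200 reads they were 14.3% and 35.7%, against 22.8% and 20.7%. Without the 7 most read, the summed counts of the remaining 228 had a log2 ratio of -0.26, against 0.13 for all 235.

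The direction of the replicate difference varied with length inside the group. The 38 transcripts of over 120 and up to 150 nt had a median log2 ratio of 0.74, with 29 above 0 and 9 below. By contrast, the 73 transcripts of over 80 and up to 100 nt had a median of -0.78, with 17 above 0 and 56 below, and the 22 of over 100 and up to 120 nt had a median of -0.76, with 5 above 0 and 17 below. At 22 to 80 nt the median was -0.42, with 31 above and 57 below. The 14 transcripts of over 150 nt had a median of 0.11, with 7 on each side.

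Calls of the exact binomial test followed these medians. In the class ending at 150 nt, 20 of 38 were called higher in replicate 1 and 5 in replicate 2. In the class ending at 100 nt the numbers were 7 and 30 of 73, in that ending at 120 nt 0 and 9 of 22, and in that ending at 80 nt 9 and 33 of 88. In the class ending at 200 nt, where ratios lay evenly on both sides of 0, they were 5 and 3 of 14. Over all transcripts, not matched for reads, the background was 23.6% higher in replicate 1 and 25% in replicate 2. The pattern across the classes was noticed in these same libraries and was not tested.

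Transcripts with few reads carried most of this pattern. At 10 to 49 reads, the 27 transcripts in the class ending at 150 nt had a median log2 ratio of 1.59 and the 42 in the class ending at 100 nt one of -1.25. With at least 50 reads the medians lay closer together, at 0.28 for 11 transcripts and -0.32 for 31. At that depth the class ending at 200 nt had a median of -0.52 for 3 transcripts. For all up to 100 nt it was -0.30 (90 transcripts), and for all over 100 nt -0.33 (23 transcripts). Ratios in the class ending at 150 nt reached far above its median. Examples were a 133-nt transcript with 36 and 4 counts, a 130-nt transcript with 36 and 3, and a 135-nt transcript with 37 and 2. Others lay far below 0, such as a 137-nt transcript with 1 and 18 counts and a 127-nt transcript with 2 and 22. Among the 11 transcripts of exactly 110 nt, 2 lay above 0 and 9 below, and 6 were called, all higher in replicate 2. Over all transcripts, not matched for reads, 48.6% were called and 25% were called higher in replicate 2. At the other common lengths calls went both ways, with 2 higher in replicate 1 and 3 in replicate 2 among 11 of 70 nt. They were 1 and 4 among 8 of 71 nt, 2 and 2 among 8 of 86 nt, and 1 and 3 among 8 of 88 nt.

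The 5 transcripts below 60 nt all had more reads in replicate 2 than the library totals give. Their counts were 349 and 305 at 22 nt, 61 and 57 at 31 nt, 8 and 7 at 34 nt, 43 and 40 at 45 nt, and 26 and 27 at 53 nt. Their log2 ratios lay close together, from -0.83 to -0.59. The exact binomial test called those of 22 and 31 nt and not the other 3.

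**Figure D5:**
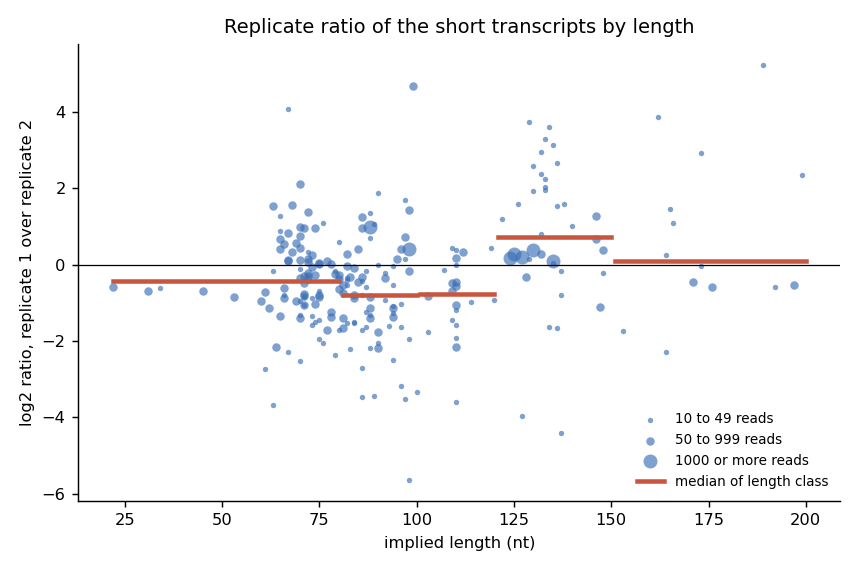
Log2 ratio of replicate 1 over replicate 2 (y axis) against implied length in nt (x axis) for the 235 short transcripts; larger points have more reads and red bars are the medians of the 5 length classes. Over all read numbers, the medians are below 0 up to 120 nt and above 0 in both longer classes. With at least 50 reads, the class from 150 to 200 nt has a median of -0.52 (3 transcripts). In the class from 120 to 150 nt, the transcripts with the highest ratios have 10 to 49 reads.

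Many short transcripts stood beside one another in the ID series. Of the 235, 76 belonged to 30 runs of consecutive IDs in which every member was short, comprising 21 pairs, 6 runs of 3, 1 of 4 and 2 of 6. What adjacency in the series means for position in the genome was not evaluated. None of the 46 adjacent pairs in these runs had counts that lay within 10% in replicate 1 and in replicate 2, against 19 of 61 such pairs (31.1%) at over 200 and up to 500 nt and 28.3% of 36004 pairs over 200 nt. By this measure adjacent short entries were not near-copies of one another. The sets were not matched for reads, with medians of 47, 137.5 and 276 summed reads per transcript in the same order. Within a run of short entries the highest transcript had a median of 3.14 times the summed reads of the lowest.

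Counts within single runs were unequal. The run that holds uc011czw.1 began with a 98-nt transcript of 1311 and 574 counts and ended with a second 88-nt transcript of 33 and 51 counts, a 110-fold range in summed reads. A run of 6 transcripts of 65 to 126 nt contained the 72-nt and 70-nt transcripts named above, at 525 and 276 and at 503 and 270 counts. Its other 4 had 116 and 46, 56 and 56, 49 and 72, and 33 and 6 counts. A second run of 6, of 53 to 81 nt, was more even, from 45 to 322 summed reads. In 16 of the 30 runs the log2 ratios lay on both sides of 0, and with 89 of the 235 ratios above 0 nothing particular to neighbours is read from this. In a pair of 110-nt transcripts the ratios lay on the same side, with 338 and 289 counts in one and 181 and 145 in the other, both called higher in replicate 2.

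The entries next to a short transcript were often longer ones with more reads. A neighbour over 200 nt with at least as many counts in both libraries was found beside 148 of the 235 (63.0%), against 301 of 418 (72.0%) at over 200 and up to 500 nt. The counts of a neighbour were identical in both libraries for 0 of the 235 and for 30 of the 418 (7.18%). Of the 235, 39 (16.6%) exceeded every listed neighbour in both libraries, against 91 of the 418 (21.8%). Whether reads of a longer transcript were also counted for a short one that overlaps it was not tested.

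At the edges of the rule the values ran on without a gap. Inside the length limit, transcripts of 192, 197 and 199 nt had 13, 77 and 33 summed reads. The only transcript with at least 10 reads just outside it, at 202 nt, had 89 and 72 counts. At the read minimum, 4 short transcripts had exactly 10 summed reads and 3 had 9. In all, 94 transcripts of 200 nt or less had 1 to 9 reads and were left out, 28 of them with a single read.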

How the data were processed

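The authors deposited raw counts, whole numbers per transcript, and TPM, which equalled count over length rescaled to 1000000 per library. Per the submitters' processing notes, cutadapt 4.1, STAR 2.7.0d and build hg38 were used. The counting program, annotation, duplicate removal and treatment of overlapping transcripts are not given in the sources used here. Per the labels' protocols, a stranded mRNA kit is named beside CLIP.

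With 1 scale per library, all 57721 count-to-TPM quotients became whole numbers, within 5.1e-10. These lengths were not compared with annotated ones. Ratios of TPM lie 0.05 below those of counts on the log2 scale. Tests used scipy 1.17.1, with edgeR 4.0.16 and DESeq2 1.42.0 for scaling and dispersion, and were checked on simulated data. For the exact test the simulated counts held counting error alone, without the wider spread between these libraries. With 1 group, edgeR offers no contrast. The transcripts and length classes were chosen with earlier results of these data known. IDs were printed for the largest ratios in each direction among short transcripts past the threshold with at least 100 reads, 2 per direction, and for uc011czw.1, which the selection rule names. Small RNA classes were not evaluated, for want of symbols. Intervals cover counting error only, and floors only that of a count of 0, since reads copied in amplification are not independent molecules. Alternatives covered scaling, read minimum, length limit, pseudocount, near-copies and variance.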

Additional observations from a re-analysis of the deposited data

How the results depend on the processing

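The 41 and 80 short transcripts called in each direction became 60 of 113 in all with at least 50 reads, fewer by construction, and 0 with the enlarged variance. Other alternatives gave between 91 and 134. The median log2 ratio of -0.37 stayed below 0 throughout. It was -0.38 with a pseudocount of 1, -0.40 with 5 counts, -0.36 with TMM, -0.33, -0.30 and -0.24 with at least 20, 50 and 100 reads, and -0.38 at length limits of 150 and of 250 nt. Leaving out the transcript with the highest mean lowered the share of counts from 0.170 to 0.142% (the 124-nt transcript) and the share of TPM from 3.54 to 2.93% (uc011czw.1). A limit of 250 nt raised the share of TPM to 3.60%. Without 1 replicate the shares were 0.163 to 0.178% and 3.51 to 3.56%, and 173 to 190 transcripts reached 10 reads. The coefficient of variation was 0.410 with at least 50 reads. Transcripts with counts in 1 library alone numbered 1 at a minimum of 20 reads and 0 at 50. The group had 113 transcripts at a minimum of 50 reads and 144 with 10 reads in each library. The 5 named transcripts kept direction and call under TMM and DESeq2 size factors. A pseudocount of 5, which does not enter the exact test, lowered the log2 ratio of uc010ahi.1 from 4.67 to 3.24. Chosen after seeing the data, 3 alternatives left 16 to 20 transcripts of over 120 and up to 150 nt called higher in replicate 1. The 16 came from leaving out transcripts with at least 1000 reads, with no new test, so it is fewer by construction. Another 2 left 92 called at least 2-fold apart. No paired analysis was possible because both libraries belong to a single group. Depth limits single values at low read numbers, where the spread between the libraries was wide.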
